A study of Mus musculus with 27 samples.

Results

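GRIP1 knockout macrophages were compared with wild-type macrophages after both had been treated with corticosterone. The comparison takes 7 of the study's 27 RNA-seq libraries, chosen by their labels: 4 knockout (KO) libraries and 3 wild-type (WT) libraries. The KO libraries carry the genotype LysM-Cre+/+; GRIP1fl/fl on C57BL/6 in the labels. The WT libraries are labelled LysM-Cre+/+ ; GRIP1wt/wt on C57BL/6 in the genotype field, while their titles and the series' text say only BL6. In the genotype field the Cre transgene is therefore shared by both groups, and the sources used here do not state which stretch of the gene is floxed.

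Cells in both groups were bone marrow-derived macrophages (BMDM), grown by culturing marrow of male mice aged 8 to 10 weeks for 5 days in low-glucose medium with 20% bovine serum and 10% conditioned medium of L cells, a fibroblast line whose secreted CSF1 turns marrow progenitors into macrophages. Adherent cells were then scraped, replated and given 500 nM corticosterone for 24 h. The other 20 libraries came from the same 2 genotypes given vehicle, IL4 at 10 ng/ml or the synthetic glucocorticoid dexamethasone at 100 nM, and the question here is which transcripts depend on GRIP1 while a natural glucocorticoid is present. Separate animals are not stated for the replicates in the labels, so a p-value here measures only how far these libraries spread, and that spread may be technical.

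GRIP1, encoded by Ncoa2, belongs to the p160 family of nuclear receptor coactivators together with Ncoa1 and Ncoa3. Corticosterone, the main glucocorticoid of mice, binds the glucocorticoid receptor (GR, Nr3c1), which then binds DNA and recruits such coregulators to activate genes such as Fkbp5, Per1 and Tsc22d3, or to hold down inflammatory genes. In macrophages GRIP1 is known to take part in both activities and in the response to IL4. LysM-Cre is expressed from the Lyz2 locus, so recombination is expected in myeloid cells, including neutrophils, but not in fibroblasts or lymphocytes that a marrow culture can hold.

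The targeted gene was lower in every KO library. Ncoa2 (chr1:13139105-13374083, minus strand, GRCm38) had 17.2, 19.7, 18.9 and 25.2 CPM (counts scaled to effective library size by edgeR) in the KO libraries, against 76.5, 87.7 and 75.2 CPM in the WT libraries. No KO library reached the WT range, and the fitted log2 fold change of KO over WT was -1.98 ± 0.15 (standard error, SE; adjusted p = 2.53e-09, edgeR quasi-likelihood test). The remaining Ncoa2 reads were not assigned to exons, because the files hold counts per gene. Among the paralogs, Ncoa1 averaged 52.8 ± 4.22 CPM in KO and 52.0 ± 1.24 CPM in WT (SD, n = 4 and n = 3), a log2 fold change of 0.02 ± 0.11 (adjusted p = 0.933). Ncoa3 averaged 234 ± 21.7 CPM in KO and 229 ± 18.1 CPM in WT, and its log2 fold change was 0.03 ± 0.11 (adjusted p = 0.902). The receptor Nr3c1 averaged 97.1 ± 9.49 CPM in KO and 94.2 ± 5.96 CPM in WT (log2 fold change 0.04 ± 0.10, adjusted p = 0.831). Lyz2, the locus that carries Cre, had 31.1 to 44.3 CPM in KO and 27.4 to 36.7 CPM in WT, with overlapping libraries.

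Library depth was even, at 24573988 to 30845315 counts in the 7 libraries. Of 29872 genes in the table, 14589 had enough counts to test, and 2102 of them (14.4%) were called at an adjusted p under 0.05. KO was higher for 797 genes (5.46% of those tested) and lower for 1305 genes (8.95%). Rises were small, with a median log2 fold change of 0.35, and falls were large, with a median of -1.58, while the median over all tested genes was 0.01. A called difference of at least 2-fold was seen for 915 genes (6.27%), of which 83 rose and 832 fell. The KO and WT libraries did not overlap for 4322 tested genes (29.6%), among them 2036 of the called genes (14% of those tested). Without WT library 1 the count of called genes was 1057, with 361 rises and 696 falls.

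The cultures differed in transcripts of other cell types. Summed over the 30 stromal markers (collagens, Sparc, Dcn, Acta2 and the like), the KO libraries had 110, 150, 145 and 151 CPM, against 2494, 963 and 675 CPM in the WT libraries. Every WT library lay above every KO library, the WT mean was 9.92 times the KO mean, and WT library 1 held the highest sum, as the WT libraries numbered 1 also did among the WT libraries of the other 3 treatments. An exact two-sided permutation test over the 7 libraries gave p = 0.0286, the smallest that 35 arrangements allow (0.093 after Benjamini-Hochberg adjustment over 13 summed lists). Neutrophil markers summed to 143 to 173 CPM in KO, against 474, 244 and 194 CPM in WT, again without overlap (exact p = 0.0286, adjusted 0.093). Most of the KO sum was Mmp8, a collagenase stored in neutrophil granules, which ran the other way at 123, 151, 139 and 140 CPM in KO, against 115, 88.3 and 94.1 CPM in WT. Without Mmp8 the list summed to 19.7, 21.9, 16.2 and 18.6 CPM in KO, against 358, 156 and 99.6 CPM in WT, with no overlap. Primary granule genes were low in both groups: Elane reached at most 0.0375 CPM in KO and 0.302 CPM in WT, Mpo at most 0.304 CPM in KO and 1.59 CPM in WT, and Ctsg 0.413 to 0.836 CPM in KO and 0.24 to 0.416 CPM in WT. The surface marker Ly6g was 0 in every KO library and at most 0.0378 CPM in WT.

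Monocyte markers summed to 100 to 117 CPM in KO and 189 to 332 CPM in WT, and B cell markers to 3.43 to 4.99 CPM in KO and 7.55 to 12.8 CPM in WT, both without overlap (exact p = 0.0286 for each, adjusted 0.093). Mast cell and basophil markers summed to 2.02 to 2.37 CPM in KO and 2.33 to 7.83 CPM in WT, and dendritic cell markers to 0.947 to 1.9 CPM in KO and 2.27 to 3.86 CPM in WT (exact p = 0.0571 for each, adjusted 0.106). T and NK cell markers stayed below 0.4 CPM in all 7 libraries, with Cd3e, Cd3g, Cd8a and Trac at 0, and eosinophil, erythroid and adipocyte markers were also below that level. The 20 macrophage identity genes summed to 24549 to 27353 CPM in KO and 24063 to 24186 CPM in WT (exact p = 0.0571, adjusted 0.106), so macrophage transcripts outweighed those of every other list in each library. In bulk RNA, fewer cells of a type and less RNA per cell cannot be told apart.

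**Figure D1:**
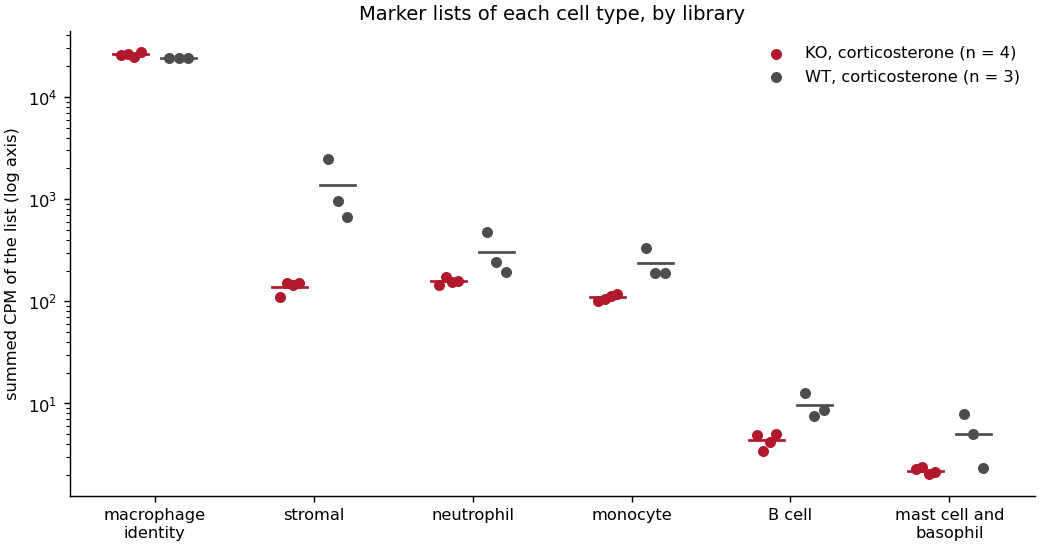
Summed CPM of 6 marker lists (log axis) in each library, with KO in red left of WT in grey and a bar at each group mean. Stromal, neutrophil, monocyte and B cell sums lie lower in all 4 KO libraries than in the 3 WT libraries, and WT library 1 has the highest stromal sum at 2494 CPM.

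To tell such transcripts apart from macrophage genes, each tested gene was sorted by how it followed the marker sums in the 20 libraries outside the comparison. A gene was taken to move with stromal or neutrophil markers if, after removal of group means, its level correlated with the list's sum at a Pearson r of 0.7 or more, or if it was on the list. This is a description over libraries that share cultures, and it does not use the 7 libraries compared. By this measure 1009 tested genes moved with either list, of which 589 were called (58.4%), 4 as rises and 585 as falls. The other 13580 genes held 1513 calls (11.1%), with 793 rises and 720 falls, and these are called macrophage-side genes here; the name says only that they did not follow those lists. With r of 0.6 the macrophage-side calls numbered 1369, and with r of 0.8 they numbered 1701. With Mmp8 left out of the neutrophil sum they numbered 1487; 42 of the 1513, among them Vegfa, Ccr2, Plac8, Hp, Alpl and Gata2, then moved with the markers, and 16 calls, Emc2 and Tmbim4 among them, no longer did.

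**Figure D2:**
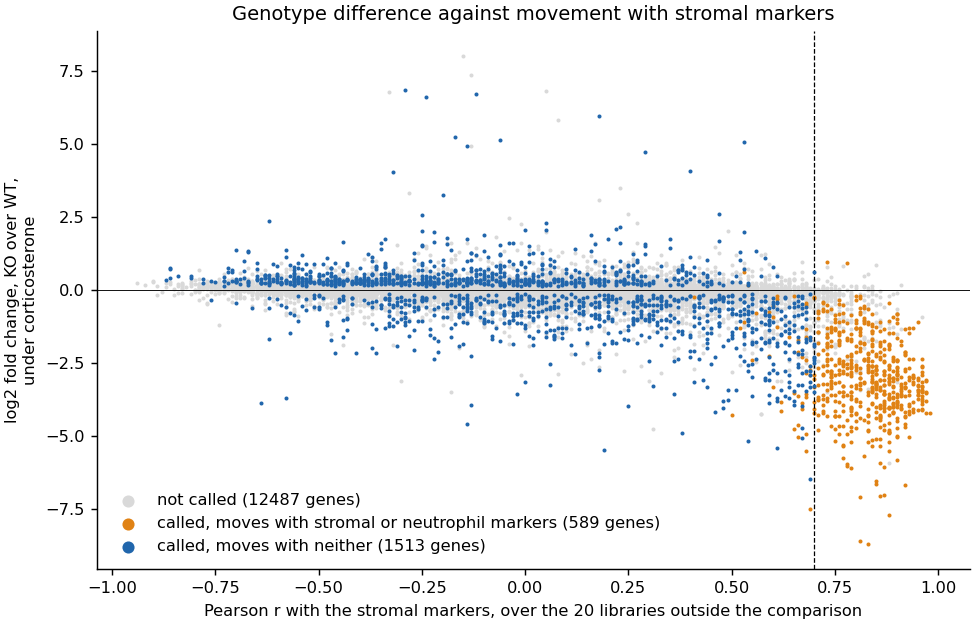
Log2 fold change of KO over WT under corticosterone (vertical axis) against Pearson r with the stromal marker sum over the 20 libraries outside the comparison (horizontal axis), 1 point per tested gene. The 589 called genes that move with stromal or neutrophil markers (orange) lie almost all below 0, while the 1513 other called genes (blue) lie on both sides; the dashed line marks r of 0.7, and orange points left of it move with neutrophil markers or are on a list.

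A second guard was to put the log2 stromal sum, the neutrophil sum or both into the model as covariates. With the stromal sum as a covariate 427 genes were called (2.93%), and with both sums 159 (1.09%). With Mmp8 left out of the neutrophil sum, both sums gave 599 (4.11%), an alternative added after seeing the data. The sums differ between the genotypes themselves, so such a fit also gives up precision: over the macrophage-side called genes the median standard error was 0.11 without covariates, 0.17 with the stromal sum and 0.20 with both, and the median absolute log2 fold change was 0.49 without covariates, 0.33 with the stromal sum and 0.32 with both. Of these 1513 genes, 1390 kept the same sign with both covariates, and 1347 with Mmp8 left out of the sum. Without the 4 WT libraries numbered 1, 1270 genes were called (8.69%), including 762 of the macrophage-side calls.

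The genes that moved with the stromal and neutrophil markers included the deepest falls named here. Col1a1, a chain of type I collagen, had 2.09, 9.59, 6.49 and 5.1 CPM in KO, against 315, 118 and 76.1 CPM in WT (log2 fold change -4.87 ± 0.74, adjusted p = 0.000144). Of 26 stromal markers tested, 25 fell and none rose, with a median log2 fold change of -3.38, and Acta2 (smooth muscle actin, -4.18 ± 0.64) and Postn (periostin, -3.36 ± 0.50) were among them. Ngp, a neutrophil secondary granule protein, had 1.1, 0.775, 0.653 and 0.45 CPM in KO, against 56.8, 21.8 and 13.2 CPM in WT, with a log2 fold change of -5.36 ± 0.71 (adjusted p = 2.9e-05). Among 18 tested neutrophil markers 12 fell and none rose (median -3.75), including Ltf (lactoferrin, -4.78 ± 0.67), S100a9 (a calprotectin subunit, -4.64 ± 0.64) and Lcn2 (lipocalin, -4.08 ± 0.59).

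Signalling genes sat in the same set. Csf1, the growth factor on which macrophages depend, had 16.9, 22, 16.9 and 23.3 CPM in KO, against 180, 71.7 and 39.0 CPM in WT (log2 fold change -2.29 ± 0.57, adjusted p = 0.0086; chosen after its values were seen). Its WT levels ordered the libraries as the stromal sum did, its r was 0.89 with the stromal and 0.90 with the neutrophil markers, and its adjusted p was 0.133 without WT library 1. With the stromal sum and the neutrophil sum without Mmp8 as covariates its sign turned, to 1.39 ± 0.31 (adjusted p = 0.0121). Wnt5a, a secreted Wnt ligand, had 0.114 to 0.245 CPM in KO and 3.57 to 16.9 CPM in WT (-5.50 ± 0.90), and Ptgs2, the inducible cyclooxygenase, averaged 0.76 ± 0.173 CPM in KO and 10.8 ± 8.22 CPM in WT (-3.82 ± 0.77, adjusted p = 0.00155). Of 8 tested monocyte markers 6 fell, 3 of which, Ly6c2 and Vcan among them, moved with the stromal or neutrophil markers, and Ly6c2, Plac8 and Hp lost their calls without WT library 1 (adjusted p 0.086, 0.143 and 0.36). Only 4 genes that moved with either list rose, among them Emc2 (0.63 ± 0.07, adjusted p = 1.76e-06), Clec4e, a receptor for mycobacterial glycolipid (0.94 ± 0.29, adjusted p = 0.0322, and 0.131 without WT library 3), and Tmbim4 (0.16 ± 0.05, adjusted p = 0.0378, and 0.142 without KO library 2).

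A core of 102 genes was called in the same direction in 12 fits: the one with all libraries, the 3 with covariates, the one without the 4 WT libraries numbered 1, and the 7 that each left out one of the compared libraries. They were 4.85% of the called genes and 0.699% of those tested, 36 as rises and 66 as falls, and 6 of them moved with stromal or neutrophil markers. With Mmp8 left out of the neutrophil sum, 96 of the 102 were also called in the same direction with that sum alone and with both sums. Since such fits share most libraries, this counts how often a call was made and is no independent test.

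Among the macrophage-side rises was Parvg, encoding gamma-parvin, a leukocyte adaptor between integrins and actin. It had 205, 199, 205 and 220 CPM in KO, against 63.7, 57.9 and 63.5 CPM in WT (log2 fold change 1.75 ± 0.07, adjusted p = 1.89e-14). Gpr141, an orphan receptor, had 58.0, 56.4, 58.4 and 57.1 CPM in KO, against 15.7, 15.6 and 19.4 CPM in WT (1.76 ± 0.12, adjusted p = 3.44e-10). Napsa, an aspartic protease of lysosomes, had 61.3, 55.6, 57.4 and 62.1 CPM in KO, against 20.1, 19.6 and 19.7 CPM in WT (1.58 ± 0.11, adjusted p = 3.44e-10). For all 3 genes the KO libraries lay close together and well above the WT range, and the call held in all 12 fits.

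Steap3, a ferrireductase of endosomes that reduces iron released from transferrin, had 248, 244, 229 and 230 CPM in KO, against 84.2, 95.2 and 88.3 CPM in WT (1.41 ± 0.07, adjusted p = 8.51e-13; chosen after its values were seen). Acaa1b, a peroxisomal thiolase with a near-identical copy, Acaa1a, had 3.46, 7.22, 3.62 and 6.45 CPM in KO, against 0.151, 0.224 and 0.0687 CPM in WT (5.07 ± 0.52, adjusted p = 4.57e-07). Its KO level was low and its WT level near 0, so the size of the fold is uncertain. Stac2 (1.75 ± 0.20), Hddc3 (1.57 ± 0.12), Lsp1, a leukocyte actin-binding protein (1.55 ± 0.19), Ceacam19 (1.59 ± 0.21), Gpr162 (1.55 ± 0.28), Ly6a (1.62 ± 0.29) and Acpp, an acid phosphatase (1.52 ± 0.25), were also among the 12 largest macrophage-side rises at 5 CPM or more, leaving out genes with predicted or clone names. The last of the 12, B3gnt7, spread widely in KO, at 4.52, 17.1, 25.8 and 17.3 CPM, against 3.09 to 4.01 CPM in WT, and its adjusted p of 0.0223 was 0.0804 without WT library 1.

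Smaller rises were also called in all 12 fits, of which a few are named after their values were seen. Tmem119, best known as a microglial marker, had 69.1, 76.0, 75.9 and 70.5 CPM in KO, against 38.0, 34.1 and 38.1 CPM in WT (0.99 ± 0.14, adjusted p = 2.73e-05). Ms4a7, a tetraspan protein of mature macrophages, rose by 0.57 ± 0.10 on the log2 scale (adjusted p = 0.00036), and Clec4n, the fungal receptor Dectin-2, by 1.29 ± 0.30 (adjusted p = 0.00455). Aph1b (1.29 ± 0.12) and Aph1c (0.99 ± 0.11), subunits of gamma-secretase that are near-identical copies of each other, both rose, and counts may be split between them.

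The deepest macrophage-side fall at 5 CPM or more, by the same rule, was Hpgd, the enzyme that inactivates prostaglandins. It had 0.722, 0.326, 0.653 and 0.825 CPM in KO, against 6.88, 9.56 and 11.5 CPM in WT (log2 fold change -3.86 ± 0.30, adjusted p = 3e-09). Slc13a3, a sodium-coupled transporter of dicarboxylates that also takes up itaconate, had 35.4, 33.2, 27.1 and 31.2 CPM in KO, against 378, 213 and 260 CPM in WT (-3.16 ± 0.29, adjusted p = 1.36e-07). Eya1, a phosphatase and transcriptional cofactor that lies near Ncoa2 on chromosome 1, had 5.39, 4.98, 5.42 and 6.27 CPM in KO, against 21.3, 25.7 and 22.5 CPM in WT (-2.07 ± 0.15, adjusted p = 1.24e-09). These 3 genes showed no overlap and were called in all 12 fits.

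Also called in all 12 were Ak4, a mitochondrial adenylate kinase (-3.46 ± 0.36), Lancl3 (-2.15 ± 0.20) and Cgnl1, a junction protein (-1.93 ± 0.19). Chil3, the secreted lectin Ym1 and a marker of alternative activation, had 17.1, 14.4, 15.4 and 16.7 CPM in KO, against 328, 145 and 88.5 CPM in WT (-3.55 ± 0.68, adjusted p = 0.0011). The WT libraries stood in the order of their stromal and neutrophil sums, Chil3's r with the neutrophil markers was 0.58, and its adjusted p was 0.442 with both covariates. Cxcl14 (-2.54 ± 0.31), Cavin1 (-2.18 ± 0.29), and Vegfa (-1.88 ± 0.39) were also among the 12 largest; with both covariates their adjusted p-values were 0.471, 0.369 and 0.986.

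**Figure D3:**
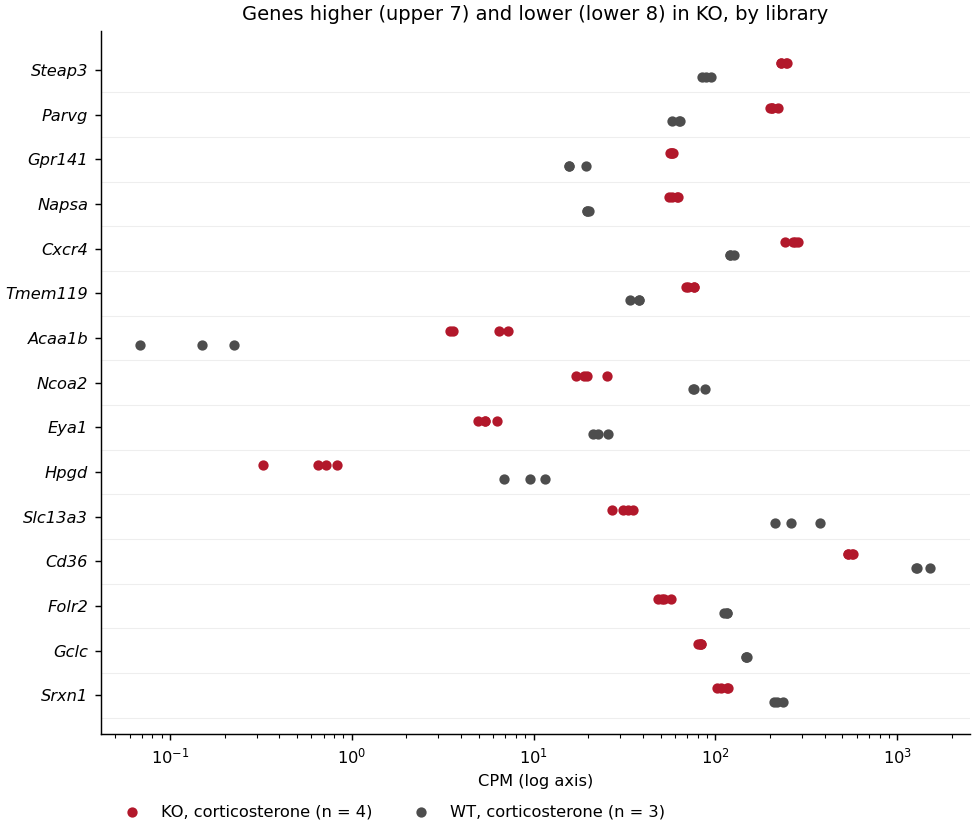
CPM (log axis) of 15 genes in each library, with the 4 KO libraries in red above the 3 WT libraries in grey in each row. The upper 7 genes are higher in every KO library and the lower 8 are lower in every KO library, with no overlap for any gene; Ncoa2 has 17.2 to 25.2 CPM in KO and 75.2 to 87.7 CPM in WT.

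The known GR target genes did not move as a block. Of 29 tested, 3 rose and 7 fell (34.5% called, against 14.4% of all tested genes), with a median log2 fold change of -0.13. With the stromal covariate 0 rose and 1 fell, Zbtb16. With both covariates 0 rose and 2 fell, Zbtb16 and Klf9, or Zbtb16 and Fkbp5 with Mmp8 left out of the neutrophil sum. Zbtb16, a zinc finger factor strongly induced by glucocorticoids, had 6.31, 5.22, 7.34 and 8.14 CPM in KO, against 9.0, 13.5 and 14.1 CPM in WT (-0.85 ± 0.19, adjusted p = 0.00271), and its call held in all 12 fits. Dusp1, a phosphatase that shuts off MAP kinases, had 71.0, 44.0, 37.1 and 43.6 CPM in KO, against 125, 153 and 88.7 CPM in WT (-1.32 ± 0.25, adjusted p = 0.000887). Cd163, the haemoglobin scavenger receptor, had 6.34, 6.82, 6.82 and 5.63 CPM in KO, against 11.5, 10.9 and 13.1 CPM in WT (-0.89 ± 0.20, adjusted p = 0.00316). With the stromal covariate the adjusted p was 0.195 for Dusp1 and 0.0933 for Cd163, and with both covariates 0.668 and 0.316.

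Crispld2 also fell (-4.19 ± 0.73, adjusted p = 0.000402), with 0.188 to 0.449 CPM in KO and 1.79 to 8.92 CPM in WT; with the stromal covariate it was -1.17 (adjusted p = 0.507) and with both -1.74 (adjusted p = 0.646). The 3 other falls, Pdk4, Errfi1 and Angptl4, moved with the stromal and neutrophil markers, and Angptl4 had an adjusted p of 0.0257, or 0.326 without WT library 1. Of the rises, Tsc22d3 (GILZ, an anti-inflammatory leucine zipper protein) had 383, 362, 365 and 385 CPM in KO, against 241, 245 and 321 CPM in WT (0.47 ± 0.11, adjusted p = 0.00477, and 0.0548 without WT library 1). Tns1, a focal adhesion protein, had 336, 301, 345 and 405 CPM in KO, against 217, 233 and 232 CPM in WT (0.61 ± 0.10, adjusted p = 0.000205). Its adjusted p was 0.279 with the stromal covariate and 0.395 with both. Jaml, a leukocyte adhesion molecule, averaged 10.4 ± 1.07 CPM in KO and 4.33 ± 1.46 CPM in WT (1.27 ± 0.22, adjusted p = 0.000389). With both covariates Tsc22d3 and Jaml had log2 fold changes of -0.03 ± 0.18 and -0.11 ± 0.37, or 0.21 ± 0.18 and 0.30 ± 0.39 with Mmp8 left out of the neutrophil sum.

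Several canonical targets were not called. Fkbp5, the immunophilin that restrains GR, had 470, 482, 497 and 494 CPM in KO, against 499, 559 and 624 CPM in WT (-0.21 ± 0.09, adjusted p = 0.124). Klf9 had 34.5, 30.4, 30.8 and 31.2 CPM in KO, against 37.7, 40.5 and 41.3 CPM in WT (-0.33 ± 0.12, adjusted p = 0.0595, 0.00324 with both covariates, and 0.219 with both when Mmp8 was left out). For both genes the KO libraries were all lower, whereas the clock gene Per1 overlapped fully, at 88.9 ± 7.98 CPM in KO and 89.0 ± 9.9 CPM in WT. A full palindromic glucocorticoid response element (either strand) stood in the 250 bases before the annotated RefSeq start of 3 of 27025 genes (0.0111%), and 1 of 26 GR targets with such a window held it, Sgk1, which was not called.

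Genes of glycolysis and the hypoxia response were lower in KO as a group. Of 24 tested, 15 fell and 1 rose (66.7% called, against 14.4% of all tested genes), and the median log2 fold change was -0.29. Of the falls, 13 were on the macrophage side and 2, Adm and P4ha1, moved with the stromal and neutrophil markers. Without the 4 WT libraries numbered 1, 11 fell and 1 rose, and with both covariates 1 fell, Ankrd37. With Mmp8 left out of the neutrophil sum 4 fell with both: Ankrd37, Gpi1, Pdk1 and Slc16a3.

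Many of these genes are known targets of the hypoxia-inducible factors, which bind a short core, ACGTG. This core (either strand) stood in the 250 bases before the RefSeq start of 15 of the 24 genes and of 10 of the 15 that fell, and in 18.5% of 27025 genes. Among the genes that did not fall, Hk2, Hk3, Pgk1, Ldha and Car9 also held it. The list holds many known targets, so these counts are a description and no test of the falls. The windows of 2 of the fallers are shown because they hold the core and overlap no annotated exon; capitals mark the core. That of Egln3 lies at chr12:54203875-54204124 on the minus strand and that of Pgam1 at chr19:41911621-41911870 on the plus strand (RefSeq on GRCm38.p6).
Egln3: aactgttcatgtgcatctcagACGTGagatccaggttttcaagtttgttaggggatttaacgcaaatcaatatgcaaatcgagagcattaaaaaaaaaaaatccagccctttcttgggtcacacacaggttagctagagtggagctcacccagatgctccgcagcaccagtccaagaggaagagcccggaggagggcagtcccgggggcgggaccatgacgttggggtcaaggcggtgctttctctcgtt
Pgam1: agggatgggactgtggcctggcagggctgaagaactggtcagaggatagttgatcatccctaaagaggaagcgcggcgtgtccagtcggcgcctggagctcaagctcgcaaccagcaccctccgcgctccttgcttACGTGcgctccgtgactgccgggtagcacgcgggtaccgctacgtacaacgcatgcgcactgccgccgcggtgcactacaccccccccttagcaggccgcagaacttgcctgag

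Ankrd37, a gene induced by hypoxia, had 1.1, 1.31, 1.11 and 0.976 CPM in KO, against 3.78, 2.53 and 3.43 CPM in WT (-1.53 ± 0.19, adjusted p = 4.68e-06). Egln3, a prolyl hydroxylase that marks hypoxia-inducible factors for breakdown, had 1.71, 1.8, 1.66 and 1.16 CPM in KO, against 7.11, 4.29 and 5.22 CPM in WT (-1.80 ± 0.29, adjusted p = 0.000155). Vegfa, the vascular growth factor, had 3.76, 3.22, 3.46 and 3.9 CPM in KO, against 20.0, 11.5 and 8.17 CPM in WT. None of the 3 overlapped between the genotypes, but the stromal covariate gave Vegfa a log2 fold change of 0.02 (adjusted p = 0.991), and its r with the stromal markers was 0.64, just under the limit. Egln3 was -0.78 with that covariate (adjusted p = 0.307), and Ankrd37 -1.21 (adjusted p = 0.0178).

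Among transporters, Slc2a1, the glucose transporter GLUT1, had 58.9, 72.3, 60.2 and 58.8 CPM in KO, against 122, 103 and 93.1 CPM in WT (-0.76 ± 0.11, adjusted p = 5.88e-05). Slc16a3, which exports lactate, averaged 38.0 ± 5.23 CPM in KO and 69.6 ± 7.0 CPM in WT (-0.87 ± 0.14, adjusted p = 0.000168), and Bnip3, a mitophagy receptor, averaged 17.8 ± 0.752 CPM in KO and 26.8 ± 2.81 CPM in WT (-0.59 ± 0.10, adjusted p = 0.000374). Pkm, pyruvate kinase, averaged 1594 ± 122 CPM in KO and 2258 ± 100 CPM in WT (-0.50 ± 0.11, adjusted p = 0.00194). Pgam1 (-0.30 ± 0.07) and Gpi1 (-0.29 ± 0.06) fell by less.

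The calls of Eno1, Tpi1, Aldoa and P4ha1 were lost without WT library 1 (adjusted p 0.15, 0.133, 0.227 and 0.264), and that of Pdk1 without WT library 3 (0.0877). Car9, a membrane carbonic anhydrase, was the single rise, at 7.86 ± 0.315 CPM in KO and 6.19 ± 0.13 CPM in WT (0.34 ± 0.08, adjusted p = 0.00647). Hif1a itself, named after its values were seen, averaged 129 ± 7.39 CPM in KO and 138 ± 11 CPM in WT (-0.10 ± 0.09, adjusted p = 0.57). Outside the list, the glycogen-branching enzyme Gbe1 had 26.8, 26, 29.2 and 26.4 CPM in KO, against 66.7, 60 and 66.0 CPM in WT (-1.24 ± 0.08, adjusted p = 2.44e-10; also named after its values were seen), and it was called in all 12 fits.

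**Figure D4:**
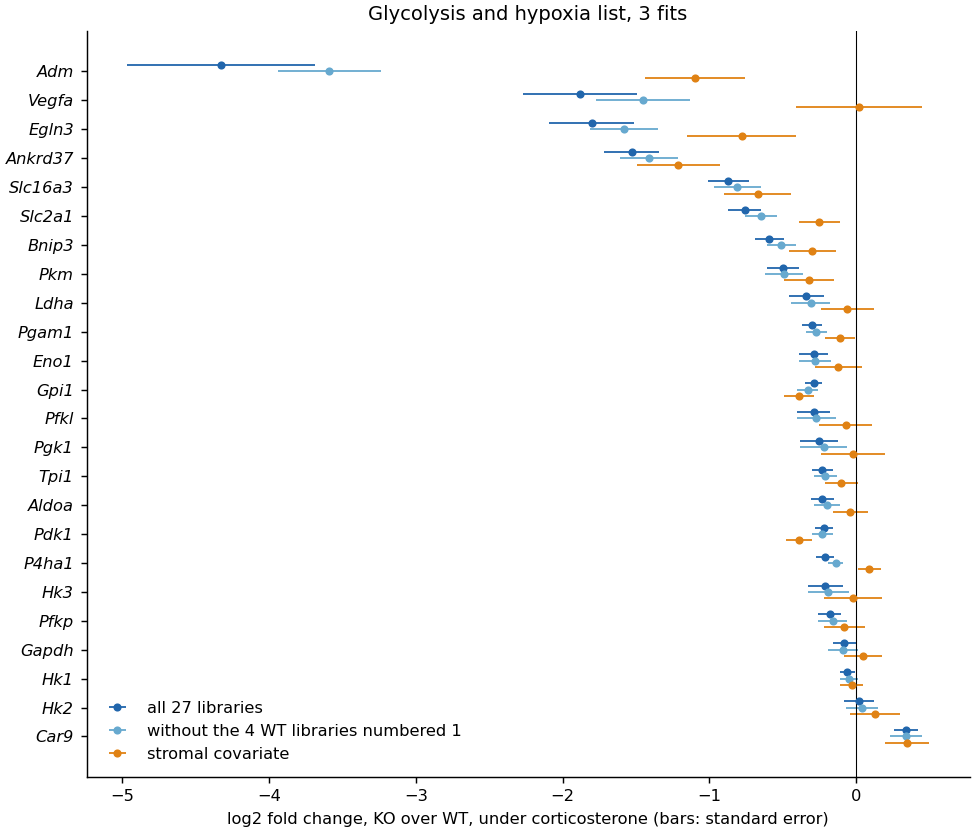
Log2 fold change of KO over WT under corticosterone with standard errors for the 24 tested genes of the glycolysis and hypoxia list, in the fit with all 27 libraries, the fit without the 4 WT libraries numbered 1 and the fit with the stromal sum as covariate. Most points lie below 0 in the first 2 fits, and with the stromal covariate Vegfa moves to 0.02 while Ankrd37 stays at -1.21.

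Scavenging and lipid handling showed falls among macrophage genes with high expression. Cd36, the scavenger receptor that takes up oxidised lipoprotein and fatty acids, had 540, 568, 539 and 572 CPM in KO, against 1518, 1282 and 1262 CPM in WT (log2 fold change -1.29 ± 0.13, adjusted p = 3.82e-07), and was called in all 12 fits. Of 29 tested efferocytosis and scavenging genes 8 fell and 1 rose (31% called, against 14.4% of all tested genes), with a median of -0.06. With the stromal covariate 2 fell, Cd36 and Scarb1, and 1 rose, Thbs1. With both covariates the same 2 fell and 0 rose. C1qa, a chain of complement C1q, averaged 633 ± 51.9 CPM in KO and 925 ± 41.4 CPM in WT (-0.55 ± 0.12, adjusted p = 0.00206), and the integrin chain Itgav averaged 222 ± 16.2 CPM in KO and 298 ± 35.3 CPM in WT (-0.42 ± 0.10, adjusted p = 0.00345). With the stromal covariate the adjusted p was 0.212 for C1qa and 0.533 for Itgav, and with both covariates 0.559 and 0.978. Mertk, the main receptor for apoptotic cells on these macrophages, averaged 331 ± 28.4 CPM in KO and 348 ± 17.2 CPM in WT, with overlapping libraries (-0.07 ± 0.11, adjusted p = 0.727).

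Of the other falls on this list, Axl and Tyro3 moved with stromal markers and lost their calls without WT library 1 (adjusted p 0.309 and 0.212), Marco lost its call without WT library 3 (0.142) and Stab2 without WT library 2 (0.104). The rise without covariates was Cd300a, an inhibitory receptor for phospholipids (0.42 ± 0.09, adjusted p = 0.00147). Folr2, a folate receptor of resident macrophages that is on no list, had 57.1, 51.1, 48.3 and 52.0 CPM in KO, against 116, 111 and 116 CPM in WT (-1.13 ± 0.08, adjusted p = 4.02e-10; named after its values were seen). It was lower in 4 of 4 KO libraries and was called in all 12 fits.

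Of 24 tested genes of fatty acid oxidation and storage, 4 fell and 2 rose (25% called, against 14.4% of all tested genes), with a median of 0.01. Among the fallers, Lpl, Lipa and Plin2 take part in the release or storage of fatty acids. Lpl, lipoprotein lipase, had 837, 748, 689 and 701 CPM in KO, against 1219, 1403 and 1209 CPM in WT (-0.78 ± 0.12, adjusted p = 9.73e-05). Lipa, the lysosomal acid lipase, averaged 724 ± 44.4 CPM in KO and 968 ± 11.9 CPM in WT (-0.42 ± 0.06, adjusted p = 2.98e-05), and Plin2, which coats lipid droplets, averaged 730 ± 46.9 CPM in KO and 1025 ± 75.4 CPM in WT (-0.49 ± 0.10, adjusted p = 0.000957). With the stromal covariate Lpl and Lipa kept their calls, while Plin2 was -0.16 (adjusted p = 0.636). With both covariates only Lipa kept its call (adjusted p = 0.0451). Fabp4 fell by 0.63 on the log2 scale (adjusted p = 0.0247), and the beta-oxidation genes Etfdh and Ech1 rose by 0.15 and 0.20, calls lost without WT library 1 (adjusted p 0.154, 0.157 and 0.151).

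Receptors for cytokines and chemokines moved in both directions. Of 24 tested 7 rose and 3 fell (41.7% called, against 14.4% of all tested genes), all on the macrophage side, with a median of 0.20. Cxcr4, the receptor for CXCL12, had 274, 243, 269 and 285 CPM in KO, against 127, 121 and 121 CPM in WT (1.12 ± 0.13, adjusted p = 1.48e-06). Tgfbr2, the ligand-binding TGF-beta receptor, had 364, 343, 374 and 406 CPM in KO, against 226, 250 and 232 CPM in WT (0.65 ± 0.09, adjusted p = 2.98e-05). The KO libraries lay above the WT libraries throughout for both receptors.

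The shared beta chains of the GM-CSF and IL3 receptors, Csf2rb (0.54 ± 0.14) and its near copy Csf2rb2 (0.35 ± 0.08), rose as well. Csf2ra, Il10ra and Il10rb were called with log2 fold changes of 0.25, 0.56 and 0.17, and lost the call without WT library 1 (adjusted p 0.0891, 0.104 and 0.184). Among the falls, Ccr2, the receptor for CCL2 and also a monocyte marker, had 2.17, 1.55, 2.02 and 2.06 CPM in KO, against 5.44, 4.41 and 3.67 CPM in WT (-1.20 ± 0.18, adjusted p = 9.15e-05). Ccr3, another chemokine receptor and on no list, averaged 3.01 ± 0.391 CPM in KO and 9.77 ± 0.777 CPM in WT (-1.70 ± 0.16, adjusted p = 7.55e-08; named after its values were seen). The decoy receptor Il1r2, a known glucocorticoid-induced gene, had at most 0.075 CPM in KO and 0.275 to 0.643 CPM in WT (-3.24 ± 0.66, adjusted p = 0.0013).

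Few inflammatory mediators were called under corticosterone. Tnf had 78.2, 91.5, 75.1 and 79.8 CPM in KO, against 82.8, 78.8 and 65.5 CPM in WT, with overlapping libraries (0.10 ± 0.18, adjusted p = 0.794), and Il1b was below 0.7 CPM in all 7 libraries. Of 26 tested proinflammatory genes 3 rose and 1 fell (15.4% called, near the 14.4% of all genes), with a median of 0.06. This depended on the covariates. With the stromal covariate 5 rose and 0 fell (median 0.75), in a fit that called 2.93% of all tested genes. With both covariates 1 rose and 0 fell (median 0.71), in a fit that called 1.09%. The values below are from the fit without covariates. Icam1, an adhesion molecule, averaged 86.2 ± 3.02 CPM in KO and 67 ± 2.34 CPM in WT (0.36 ± 0.06, adjusted p = 0.000308). Nfkb1 averaged 179 ± 4.59 CPM in KO and 149 ± 10.3 CPM in WT (0.26 ± 0.06, adjusted p = 0.00792, and 0.0946 without WT library 1), Traf1 (0.60 ± 0.20) had an adjusted p of 0.0436, or 0.175 without WT library 3, and the faller was Ptgs2, described above with the stromal genes.

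Of 43 tested interferon-stimulated genes 4 rose and none fell (9.3% called, below the 14.4% of all genes), with a median of 0.24. Gbp3, a guanylate-binding protein, averaged 10.3 ± 0.615 CPM in KO and 5.45 ± 0.421 CPM in WT (0.91 ± 0.13, adjusted p = 3.47e-05), and Gbp7 averaged 23.3 ± 2.66 CPM in KO and 14.5 ± 2.55 CPM in WT (0.69 ± 0.16, adjusted p = 0.00331). Ifi47 (0.47 ± 0.15) was called and lost the call without WT library 1 (adjusted p 0.188). Cxcl10 had 2.09, 0.857, 0.849 and 0.976 CPM in KO, against 0.378, 0.352 and 0.652 CPM in WT, without overlap but not called (1.36 ± 0.49, adjusted p = 0.0645).

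In MHC class II presentation 2 of 11 tested genes rose and none fell (18.2% called, near the 14.4% of all tested genes). Ciita, the master regulator of these genes, averaged 0.981 ± 0.36 CPM in KO and 0.158 ± 0.0581 CPM in WT (2.57 ± 0.47, adjusted p = 0.000526), and Ctss, cathepsin S, averaged 2290 ± 113 CPM in KO and 1714 ± 22.8 CPM in WT (0.42 ± 0.09, adjusted p = 0.00342). With the stromal covariate the adjusted p was 0.226 for Ciita and 0.114 for Ctss, and with both covariates 0.458 and 0.435. The class II chain H2-Ab1 averaged 35 ± 5.6 CPM in KO and 25.9 ± 6.61 CPM in WT (0.44 ± 0.22, adjusted p = 0.212), and the invariant chain Cd74 averaged 178 ± 14.6 CPM in KO and 183 ± 32.6 CPM in WT (-0.04 ± 0.18, adjusted p = 0.922).

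Of 25 tested genes of alternative activation 3 fell and none rose (12% called, near the 14.4% of all tested genes), with a median of -0.25: Chil3 (above), the chemokine Ccl22 at below 1 CPM (-2.37 ± 0.65, adjusted p = 0.014, and 0.113 without WT library 1), and fibronectin, Fn1, which moved with the stromal markers (-3.73 ± 0.57, adjusted p = 0.000148). Arg1 averaged 0.276 ± 0.169 CPM in KO and 1.96 ± 0.343 CPM in WT, without overlap but with a wide error in the shared fit (-2.79 ± 2.79, adjusted p = 0.596). Its group means elsewhere ran from 2.36 CPM in WT with vehicle to 870 CPM in WT with IL4. The mannose receptor Mrc1 averaged 1226 ± 112 CPM in KO and 949 ± 92.3 CPM in WT (0.37 ± 0.19, adjusted p = 0.241). The macrophage identity list held 3 rises and no fall among 20 tested genes (15% called, near the 14.4% of all): Laptm5, Trem2 and Tyrobp, by 0.23 to 0.26 on the log2 scale, with adjusted p-values of 0.133 and 0.244 without WT library 1 for the first pair and 0.146 without KO library 2 for Tyrobp.

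Complement genes held 1 rise and 3 falls among 14 tested (28.6% called, against 14.4% of all tested genes). C1qa (above) and C1ra (-0.65 ± 0.14) were among the falls. Properdin, Cfp, was called as the rise (0.35 ± 0.09, adjusted p = 0.0125, and 0.0731 without WT library 1). Matrix remodelling genes fell in 8 cases and rose in 1 of 17 tested (52.9% called, against 14.4% of all tested genes), but 5 of the falls, among them Timp1, Mmp9, Mmp2 and Timp3, moved with the stromal and neutrophil markers, and Mmp2 and Timp3 lost their calls without WT library 1 (adjusted p 0.111 and 0.292). The other 3, Mmp13, Adam8 and Mmp19, lost theirs when a WT library was left out (adjusted p 0.0946 and 0.0702 without library 1, and 0.111 without library 3). Mmp14, the membrane-type collagenase, was the rise, with 350, 401, 332 and 397 CPM in KO, against 241, 220 and 173 CPM in WT (0.81 ± 0.17, adjusted p = 0.00227).

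In the remaining lists 0 to 23.5% of tested genes were called, against 14.4% of all tested genes. The 24 ribosomal protein genes tested held no call. Cholesterol synthesis had 2 rises in 24 (8.33% called: Ebp, 0.31 ± 0.05, and Mvd, 0.36 ± 0.09). Oxidative phosphorylation had 2 rises in 23 (8.7%: Sdha, 0.23 ± 0.06, and Sdhb, 0.26 ± 0.08). Nuclear receptor coregulators had 1 rise in 26 (3.85%: Ncoa4, 0.39 ± 0.11), and the circadian clock 1 rise in 15 (6.67%: Tef, 0.50 ± 0.12). The cell cycle had 1 fall in 30 (3.33%), the helicase subunit Mcm6 (-0.49 ± 0.08, adjusted p = 0.000138), which was called in all 12 fits. The integrated stress response had 4 falls in 17 (23.5%): the cystine transporter Slc7a11 (-1.44 ± 0.21), which moved with the stromal and neutrophil markers, and Phgdh, Atf5 and Psat1.

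Immediate early genes had 3 falls in 18 (16.7% called: Maff, Fosb and Klf2), and the KLF family 2 in 11 (18.2%: Klf2, -1.09 ± 0.28, and Klf10, -0.29 ± 0.07). Left out in turn, WT library 1 ended the calls of Mvd, Ncoa4, Phgdh, Atf5, Psat1 and Maff (adjusted p 0.0575, 0.148, 0.364, 0.143, 0.179 and 0.14), and WT library 2 those of Sdhb, Fosb, Klf2 and Klf10 (0.154, 0.148, 0.0543 and 0.0564). Among marker lists not yet given, calls were Cpa3, Mcpt8, Prss34, Hdc and Gata2 of 6 mast cell genes, Ebf1 and Ighm of 4 B cell genes, Dcstamp and Ocstamp of 8 osteoclast genes, Alpl of 4 osteoblast genes and Ccr7 of 3 dendritic cell genes, all as falls. Apart from Ebf1 and Ighm, which moved with the markers, these falls were not called without WT library 1 (adjusted p 0.1 to 0.287). The other call was Kdr of 7 endothelial genes as a rise (0.54 ± 0.15, adjusted p = 0.0143, and 0.0669 without KO library 4). Megakaryocyte, T and NK cell, eosinophil and adipocyte genes held no call, and no erythroid gene was tested.

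Some differences lay next to each other in the genome, and were chosen after their values were seen. Near the end of chromosome X, all 8 tested genes from Gm15232 to Hccs (chrX:167088093-169320372, GRCm38) rose, with a median log2 fold change of 0.96. The run was chosen by its values, so the share called inside it was fixed by that choice. The endosomal RNA sensor Tlr7 had 516, 529, 593 and 678 CPM in KO, against 246, 275 and 276 CPM in WT (1.12 ± 0.13, adjusted p = 1.97e-06), and its neighbour Tlr8 had 272, 281, 343 and 384 CPM in KO, against 158, 191 and 182 CPM in WT (0.86 ± 0.19, adjusted p = 0.00273). Msl3, a subunit of a histone acetyltransferase complex, had 107, 111, 123 and 119 CPM in KO, against 56.0, 57.4 and 55.9 CPM in WT (1.03 ± 0.07, adjusted p = 6.24e-10). Hccs, which attaches haem to cytochrome c, had 67.8, 69.2, 76.5 and 67.4 CPM in KO, against 41.3, 37.9 and 37.9 CPM in WT (0.85 ± 0.06, adjusted p = 1.6e-09).

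None of the 8 genes moved with stromal or neutrophil markers. Without the 4 WT libraries numbered 1, 7 were called as rises; with both covariates 2 were (median 0.68), and 3 with Mmp8 left out of the neutrophil sum (median 0.86). Prps2 (0.88 ± 0.10), Arhgap6 (1.20 ± 0.29), Tmsb4x (0.58 ± 0.12) and Gm15232 (1.38 ± 0.29) made up the rest of the run. Arhgap6 overlaps Hccs on the other strand, and whether counting used strand is not stated in the sources used here, so their reads may not be told apart. The 6 tested genes before it (chrX:166170454-166518567) had a median of 0.06, with 1 rise (Trappc2, adjusted p = 0.0129, and 0.0663 without WT library 2) and 1 fall (Gpm6b, which moved with the markers, adjusted p = 0.0212, and 0.178 without WT library 1). The 5 tested genes after it (chrX:169320622-170019281) had a median of -0.19 and no call in edgeR's test, but the 2 nearest, Gm15246 and BC022960, had log2 fold changes of 0.83 and 0.74 (adjusted p = 0.167 and 0.0871), so where the run ends cannot be placed from these calls. In the other treatments the run had medians of 1.10 with vehicle, 1.22 with IL4 and 0.97 with dexamethasone, in other libraries of the same genotypes. Same-numbered libraries of the same genotype deviated together across treatments, so these medians are not independent repeats. DNA copy number was not measured here.

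**Figure D5:**
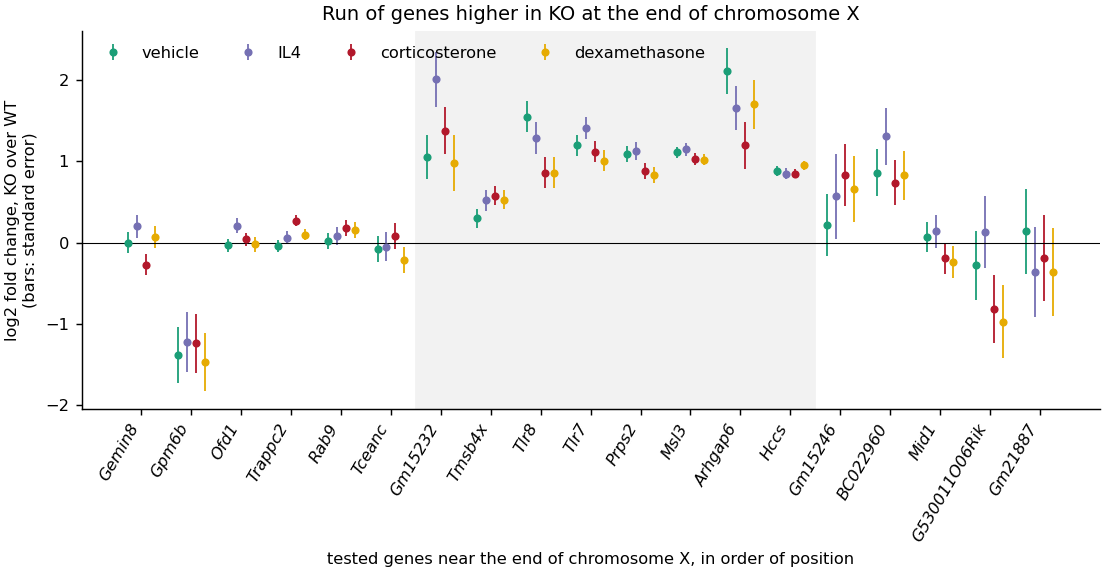
Log2 fold change of KO over WT with standard errors for 19 tested genes in order along the end of chromosome X, under vehicle, IL4, corticosterone and dexamethasone. The 8 genes on grey, Gm15232 to Hccs, lie above 0 in all 4 treatments, with a median of 0.96 under corticosterone, while the 6 genes before them have a median of 0.06.

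On chromosome Y, Mid1-ps1 (2.02 ± 0.59, adjusted p = 0.0212) and Gm47283 (1.56 ± 0.47, adjusted p = 0.026) were called as higher in KO, with means of 0.801 and 4.81 CPM in KO and 0.193 and 1.63 CPM in WT, and lost the call without WT library 1 (adjusted p 0.104 and 0.121). Wide gaps were also seen in processed pseudogenes, named after their values were seen, whose reads can come from parent genes. Gm11942 had 39.0, 44.5, 36.3 and 36.1 CPM in KO, against 0.907, 0.544 and 0.446 CPM in WT (5.95 ± 0.24, adjusted p = 2.09e-14), and Gm6166 had 98.5, 63.7, 84.9 and 109 CPM in KO, against 2.65, 3.49 and 2.64 CPM in WT (4.92 ± 0.25, adjusted p = 2.88e-12). Around the targeted locus, 27 genes besides Ncoa2 were tested within 5 Mb, and 7 fell while none rose (25.9% called, against 14.4% of all tested genes). Of those 7, Eya1 was deepest among genes with over 5 CPM, followed by the RNA gene Snhg6, which moved with the stromal and neutrophil markers and averaged 5.51 ± 0.429 CPM in KO and 11.3 ± 1.75 CPM in WT (-1.04 ± 0.13, adjusted p = 5.53e-06), while Sulf1, Rrs1 and Slco5a1 lost their calls when 1 WT library was left out (adjusted p 0.115 for the first pair without library 1, and 0.133 for Slco5a1 without library 2).

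Many of the genotype differences were also called in the other treatments. KO against WT called 2738 genes with vehicle (18.8%), 1802 with IL4 (12.4%) and 2512 with dexamethasone (17.2%). Of the 2102 genes called under corticosterone, 1445 were also called in the same direction with vehicle (68.7% of them, and 52.8% of those called with vehicle), 1079 with IL4 (51.3% and 59.9%), and 1735 with dexamethasone (82.5% and 69.1%). Parvg, for example, had log2 fold changes of 1.54 ± 0.07 with vehicle and 1.86 ± 0.07 with dexamethasone beside 1.75 ± 0.07 under corticosterone. Cxcr4 had 1.31 ± 0.13 with vehicle and 1.09 ± 0.13 with dexamethasone, and Slc13a3 had -3.38 ± 0.29 and -3.29 ± 0.29. The overlaps above are not independent repeats, because same-numbered libraries of the same genotype deviated together across treatments. They also count genes that moved with the stromal and neutrophil markers: 25 of 26 tested stromal markers were called as falls in each treatment.

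The test of the difference itself, the genotype effect under corticosterone minus that with vehicle, called 3 of 14589 genes (0.0206%; 926 at an unadjusted p under 0.05). Lpl had a log2 fold change of KO over WT of -0.78 under corticosterone and 0.38 with vehicle, a difference of -1.16 ± 0.17 (adjusted p = 0.00461). Ms4a4a, a tetraspan protein of macrophages that glucocorticoids induce, had 360, 333, 366 and 395 CPM in KO, against 234, 230 and 264 CPM in WT under corticosterone (0.58 ± 0.21, adjusted p = 0.0627), while with vehicle its log2 fold change was 2.69 ± 0.23, so the difference was -2.10 ± 0.30 (adjusted p = 0.00461). Ppfibp2, a liprin scaffold protein, had 0.10 ± 0.08 under corticosterone and -0.65 ± 0.08 with vehicle, a difference of 0.76 ± 0.12 (adjusted p = 0.00771). Without the 4 WT libraries numbered 1 none of these was called (795 at an unadjusted p under 0.05), and without vehicle KO library 1 the count was 36.

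Same-numbered libraries of 1 genotype deviated together across treatments. Blocking on that number inside each genotype called more differences between corticosterone and vehicle, 110 genes, of which 42 were positive and 68 negative. They included Zbtb16, whose log2 fold change of KO over WT was -0.85 ± 0.19 under corticosterone and 0.79 ± 0.28 with vehicle (difference -1.63 ± 0.20, adjusted p = 0.000336). Tmem119 had 0.99 ± 0.14 and 0.03 ± 0.13 (difference 0.96 ± 0.19, adjusted p = 0.0287). In that fit Cd36 (-1.29 ± 0.13 under corticosterone, -0.49 ± 0.13 with vehicle) also passed (adjusted p = 0.00124), while Cxcr4, Dusp1, Fkbp5 and Tsc22d3 did not.

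Between corticosterone and dexamethasone no gene's genotype effect differed at an adjusted p under 0.05 (edgeR, 116 at an unadjusted p under 0.05; DESeq2 also called 0, with 73 unadjusted). With dexamethasone Zbtb16 had -0.77 ± 0.18, Lpl -1.19 ± 0.12 and Tmem119 0.84 ± 0.14. Fitted values of genes with wide errors lay farther apart: Crispld2 had -4.19 ± 0.73 under corticosterone and -1.72 ± 0.61 with dexamethasone, Il1r2 -3.24 ± 0.66 and -1.46 ± 0.49, and Chil3 -3.55 ± 0.68 and -1.86 ± 0.64. Both glucocorticoid comparisons used different libraries of the same genotypes, whose same-numbered members deviated together, and neither shows that the 2 agents act alike.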

How the data were processed

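The authors deposited read counts per gene for 27 libraries. Per the labels, poly(A) RNA with RIN above 8 went through a directional NEBNext Ultra II kit and 50 bp paired reads on a NovaSeq instrument. The submitters' processing notes name fastp 0.23.2, STAR 2.7.0, featureCounts, edgeR 3.38.4 and mm10; how strand was used in counting is not stated in the sources used here. Totals were 20162729 to 48023102 counts.

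CPM and tests were computed here from the deposited counts with edgeR 4.0.16 in R 4.3.3: filterByExpr (minimum 10), TMM scaling and a robust quasi-likelihood fit of 8 group means over all 27 libraries, with Benjamini-Hochberg adjustment over 14589 genes. The biological coefficient of variation was 0.122. Standard errors are on the log2 scale. Alternatives used RLE scaling, other filters, DESeq2 1.42.0, limma 3.58.1 (voom), marker covariates, replicate blocks and left-out libraries; removing the 4 WT libraries numbered 1, blocks within genotype, and a neutrophil sum without Mmp8, were added after seeing the data.

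Positions came from GENCODE vM21 on GRCm38, which matched 29815 of 29872 gene IDs, and promoters from RefSeq on GRCm38.p6. The members and lists were chosen with earlier results of these data known. Genes were named by rule: among called genes that do not overlap and reach 5 CPM in either group's mean, leaving out predicted and clone names, the 12 largest rises and 12 largest falls on the macrophage side, the 6 largest of each that moved with markers, up to 4 per list by adjusted p, the largest differences between treatments, and a fixed set of GR, cytokine and marker genes; others are stated as chosen later. Same-numbered libraries of 1 genotype correlated in their deviations from group means (r of 0.11 to 0.31 in KO and 0.22 to 0.68 in WT), a pairing found in the data and not stated in the labels. Some called genes are counted in the totals but not reported here by name.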

Additional observations from a re-analysis of the deposited data

Results flagged for a closer look

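In 10 of 205 groups of 4 KO libraries, 1 library stood apart from the others, with a gap to its nearest neighbour that took more of the group's range than Dixon's critical value allows; chance flags about 1 in 20 groups. Of these, 9 are given here. Among genes, this share was 0.846 for Crispld2, 0.918 for Ctss, 0.898 for Cxcl10, 0.891 for Ibsp, 0.913 for Phgdh and 0.900 for Slc2a1. Among summed lists it was 0.977 for the proinflammatory genes, 0.937 for the MHC class II genes and 0.858 for the stromal markers, where KO library 1 was the lowest at 110 CPM.

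For 3 genes the genotype effect differed between corticosterone and vehicle by a test of the difference itself, with log2 differences of -2.10 for Ms4a4a, -1.16 for Lpl and 0.76 for Ppfibp2.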

How the results depend on the processing

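Under corticosterone, 2102 genes were called. The count was 427 with the stromal covariate, 159 with both covariates, 542 with the neutrophil covariate less Mmp8, 599 with the stromal covariate and that sum, and 1270 without the 4 WT libraries numbered 1, and it ran from 1057 (without WT library 1) to 1938 (without WT library 3) when 1 library was left out. With the replicate number as a block it was 2457; KO and WT libraries of the same number did not deviate together (r of -0.13, -0.05 and -0.01), so the number does not pair them. RLE scaling, DESeq2 and voom gave 2068, 2250 and 2189. For the difference from vehicle, 3 genes were called; the count was 6 with a CPM of 1 or more in 3 libraries, 80 with DESeq2, 95 with voom, 18 with the replicate block, 110 with the block within genotype, 22, 6 and 23 with the stromal, neutrophil and both covariates, 14 and 9 with the neutrophil sum less Mmp8 alone and with the stromal sum, 5 without the 4 libraries of high Arg1, 13 with only the groups compared, 0 without the 4 WT libraries numbered 1, and 2 to 36 with 1 library left out. The cause was not tested.

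Of 148 named genes called, 56 kept direction and call with the stromal covariate, 77 lost the call and 15 changed sign. Those 15 had log2 fold changes of 0.77 (Alpl), 0.12 (Atf5), 1.06 (Csf1), 0.12 (Ebf1), 0.46 (Gata2), 0.50 (Gpm6b), 0.30 (Hdc), 0.74 (Ly6c2), 0.54 (Maff), 0.53 (Mcpt8), 0.51 (Prss34), 0.35 (Ptgs2), 1.15 (Sulf1), 0.28 (Timp1) and 0.02 (Vegfa). With both covariates 38 kept the call and 11 changed sign, at 0.50 (Alpl), 0.32 (Csf1), 0.66 (Gata2), -0.11 (Jaml), 0.37 (Maff), 0.86 (Mcpt8), 0.35 (Prss34), 0.21 (Ptgs2), 0.07 (Slco5a1), 0.94 (Sulf1) and -0.03 (Tsc22d3). With the neutrophil sum less Mmp8, 17 changed sign, at 0.90 (Alpl), 0.14 (Atf5), 1.31 (Csf1), 0.26 (Ebf1), 0.65 (Gata2), 0.69 (Gpm6b), 0.71 (Hdc), 1.25 (Ly6c2), 0.52 (Maff), 0.90 (Mcpt8), -0.65 (Mid1-ps1), -0.01 (Nfkb1), 1.15 (Prss34), 0.52 (Ptgs2), 1.29 (Sulf1), 0.29 (Timp1) and 0.42 (Vegfa); with the stromal sum added 16 did, at 0.91 (Alpl), 0.17 (Atf5), 1.39 (Csf1), 0.21 (Ebf1), 0.66 (Gata2), 0.70 (Gpm6b), 0.70 (Hdc), 1.25 (Ly6c2), 0.59 (Maff), 0.90 (Mcpt8), -0.02 (Nfkb1), 1.10 (Prss34), 0.51 (Ptgs2), 1.25 (Sulf1), 0.30 (Timp1) and 0.41 (Vegfa). The cause was not tested. No named gene changed sign with RLE scaling, DESeq2, voom, the replicate block or 1 library left out.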

Other observations

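A list of 24 genes of thiol and redox metabolism, most of them known targets of the oxidant-sensing factor NRF2 (Nfe2l2), was drawn up after its members' values were seen. Under corticosterone 16 of 23 tested fell in KO and none rose (69.6% called, against 14.4% of all tested genes), with a median log2 fold change of -0.64. The list was chosen by its values, so the share called inside it follows from that choice and cannot be weighed against 14.4%. Of the falls, 14 were on the macrophage side and 2, Hmox1 and Slc7a11, moved with the stromal or neutrophil markers. Without the 4 WT libraries numbered 1, 13 fell; with the stromal covariate 10 fell, and with both covariates 5, or 9 with Mmp8 left out of the neutrophil sum. Srxn1, which repairs oxidised peroxiredoxins, had 116, 117, 108 and 102 CPM in KO, against 235, 217 and 211 CPM in WT (-0.99 ± 0.07, adjusted p = 8.33e-10, edgeR). Gclc, the catalytic subunit of the rate-limiting enzyme of glutathione synthesis, had 82.1, 80.1, 83.0 and 83.0 CPM in KO, against 150, 148 and 148 CPM in WT (-0.86 ± 0.07, adjusted p = 2.53e-08). The KO libraries lay below all WT libraries for both genes. The haem oxygenase Hmox1, one of the 2 that moved with the markers, had 604, 747, 645 and 652 CPM in KO, against 1488, 1174 and 1208 CPM in WT, again with no overlap. The regulatory subunit Gclm had 250, 212, 222 and 207 CPM in KO, against 423, 391 and 456 CPM in WT (-0.93 ± 0.12, adjusted p = 1.49e-05). Gsta3, a glutathione transferase, had 17.6, 17.0, 17.6 and 14.1 CPM in KO, against 47.7, 42.9 and 58.4 CPM in WT (-1.58 ± 0.26).

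NRF2 binds a core, TGACNNNGC. It stood (either strand) in the 250 bases before the RefSeq start of 6 of 19 genes of the list with such a window, all 6 among the 12 called ones, and in 11.5% of 27025 genes. Most members are known NRF2 targets and the list was chosen by its values, so these counts are a description and no test. The windows of Gclm (chr3:122245307-122245556, plus strand) and Gsta3 (chr1:21240335-21240584, plus strand; GRCm38.p6) are shown because they hold the core and overlap no annotated exon; capitals mark it.
Gclm: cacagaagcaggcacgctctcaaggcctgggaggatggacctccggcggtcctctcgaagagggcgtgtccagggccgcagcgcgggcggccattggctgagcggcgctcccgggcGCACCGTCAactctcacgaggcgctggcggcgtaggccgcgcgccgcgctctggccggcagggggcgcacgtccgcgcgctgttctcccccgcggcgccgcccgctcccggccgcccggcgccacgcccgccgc
Gsta3: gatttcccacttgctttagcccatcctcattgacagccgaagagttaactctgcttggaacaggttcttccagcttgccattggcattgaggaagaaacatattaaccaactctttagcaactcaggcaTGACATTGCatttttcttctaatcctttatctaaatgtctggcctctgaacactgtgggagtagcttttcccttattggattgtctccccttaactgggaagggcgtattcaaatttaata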
